A study of Mus musculus with 6 samples.

Results

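Lymphatic endothelial cells line the vessels that carry interstitial fluid, lipid and immune cells out of a tissue. Their identity rests on the transcription factor PROX1, and their growth on VEGF-C acting through the receptor VEGFR-3, the product of Flt4. Blind-ended initial vessels take up fluid and display the chemokine CCL21 to dendritic cells, collecting vessels with valves move the lymph on, and in lymph nodes specialised lymphatic cells line the sinuses through which it percolates. In fat, lymphatics run between the lobules and converge on a node embedded in the depot, and the study's methods state that the inguinal node was removed from the tissue before it was processed for anything other than histology.

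The cells described here came from single-cell RNA-seq of non-immune stromal vascular cells of mouse inguinal white adipose tissue (iWAT), obtained by sorting out CD45+ cells. Young (9 weeks) and aged (57 weeks) male C57BL/6 mice (JN or J substrain, per the study's methods) were acclimated at 30 °C for 3 weeks, and then either stayed at that thermoneutral temperature (TN) or spent the last 3 days (3D) or 14 days (14D) at 6 °C. Each combination of age and temperature is 1 library, so 6 libraries give 3 per age and 2 per temperature, with no replicate of any combination. The sample labels do not give the number of mice in each library. The study's methods say that mice were pooled only where stated and state no pooling for these libraries. The SD and n below are over libraries. The animals carried no engineered allele, and the p-values below measure only the spread between these libraries. Values by library are given throughout in the order young TN, young 3D, young 14D, aged TN, aged 3D and aged 14D.

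Lymphatic endothelial cells were selected on their own transcripts. A barcode was chosen by having at least 1000 unique molecular identifiers (UMIs, each a captured RNA molecule), under 10% mitochondrial UMIs, under 30 UMIs of the fibroblast gene Dcn per 10,000, none of the immune genes Ptprc and C1qa, and at least 2 UMIs from at least 2 of Prox1, Mmrn1, Lyve1 and Flt4 with Prox1 or Mmrn1 among them. The rule found 93 cells among 68103 barcodes, or 0.152% of the 61195 barcodes that passed the limits on depth and mitochondrial UMIs. They were spread over the libraries as 15, 21, 25, 17, 10 and 5 cells, so 61 came from young and 32 from aged mice. The comparison cells were 4132 blood endothelial cells under the same limits, with both Pecam1 and Cdh5 detected and no UMI of Prox1, Mmrn1 or Lyve1. These numbered 564, 529, 669, 1275, 693 and 402.

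The aged 14D library stood apart in size. Its 5 lymphatic cells held 25612 UMIs, 4.15% of all lymphatic UMIs, against 105036, 174393, 151899, 88943 and 71375 in the other libraries. Median depth per lymphatic cell was 6613, 7901, 6390, 4773, 7144 and 5336 UMIs, with 2633, 2945, 2425, 2042, 2798 and 2280 genes detected, and was lower in blood endothelial cells, at 3683, 3947, 3287, 3102, 3335 and 3249 UMIs. Of 67565 distinct barcode sequences, 524 occurred in more than 1 library. Among them was 1 lymphatic barcode, and none was called lymphatic in 2 libraries. A doublet score computed from simulated cell pairs marked 0 of the 93 cells, against 8.19% of all barcodes past the limits.

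The 4 genes that chose the cells describe them without a test. Prox1 was present in 89 cells (95.7%), with a median of 4 and a maximum of 27 UMIs. Lyve1, which encodes a hyaluronan receptor, was present in 76 cells (81.7%) and was the most abundant, with a median of 11 UMIs and up to 100. Mmrn1, which encodes the secreted multimerin 1, was present in 66 cells (71.0%) and Flt4 in 63 (67.7%). All 4 genes were detected in 43 cells, 3 of them in 22 and only 2 in 28, and the median cell held 16 UMIs of the 4 together. Summed over the cells of a library, Prox1 stood at 790, 723, 876, 854, 462 and 859 CPM (UMIs of a gene per 1000000 UMIs of the summed cells), Lyve1 at 2018, 2248, 2008, 1799, 1989 and 2382, Mmrn1 at 371, 516, 474, 641, 1191 and 937, and Flt4 at 352, 373, 224, 292, 364 and 586. Lyve1 varied least among the 4, and Mmrn1 was higher in each aged library than in each young one. Because Mmrn1 helped to choose the cells, no age difference is read from it. Flt4 was also found in blood endothelial cells, at 30.5 ± 5.43 CPM (SD, n = 6).

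The label was checked against endothelial genes. Pecam1, which encodes CD31, had a UMI in 82 cells (88.2%), Cdh5, which encodes VE-cadherin, in 74 (79.6%), and 86 cells had at least 1 of them. The 7 cells without either were more frequent near the edge of the rule. Of the 80 cells with more than 5 marker UMIs, 77 had Pecam1 or Cdh5, as did 6 of the 8 with 3 to 5 marker UMIs and 3 of the 5 with exactly 2. Those 5 cells just inside the limit carried 166 UMIs of Fabp4, a fatty acid carrier of fat capillaries, per 10,000, against 14.1 in the cells with more than 5. Just outside it were 113 cells with at least 2 marker UMIs from a single gene or from Lyve1 and Flt4 alone, with 209 Fabp4 UMIs per 10,000, and 693 cells with a lone marker UMI, with 304. A further 15 barcodes met the marker rule and were left out by the limit on Dcn, and 1 by Ptprc or C1qa. The cells at the lower edge therefore carried more Fabp4 than the rest of the lymphatic set.

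Lymphatic endothelial cells made up a lower share of the endothelial cells in each aged library than in each young one. The shares were 2.59% (95% exact Clopper-Pearson interval 1.46 to 4.24), 3.82% (2.38 to 5.78) and 3.60% (2.34 to 5.27) in the young libraries. In the aged libraries they were 1.32% (0.768 to 2.10), 1.42% (0.684 to 2.60) and 1.23% (0.400 to 2.84). These intervals cover counting error only. The mean was 3.34% ± 0.655 in young and 1.32% ± 0.0972 in aged mice (SD, n = 3), a difference of -2.01 percentage points. The 2 ages did not overlap, and a two-sided exact permutation test gave p = 0.1, the smallest that this unmatched test allows with 3 libraries against 3, so it could not reach 0.05. The share depends on its denominator, since aged TN held the most blood endothelial cells. As a share of all barcodes past the limits, lymphatic cells were 0.165%, 0.202%, 0.224%, 0.169%, 0.0956% and 0.050%. There the 2 ages overlapped at TN (0.197% ± 0.0296 against 0.105% ± 0.0598, SD, n = 3, exact permutation p = 0.2), and the lowest values were those of the aged cold libraries. Without the cells that held lymph node sinus transcripts (Marco, Madcam1 or Ackr4), the shares of endothelial cells were 1.05%, 0.751%, 0.742%, 0.313%, 0.858% and 0.495%, so the ages overlapped and the difference was -0.293 percentage points (exact permutation p = 0.3). Whether cells with these transcripts came from node tissue was not tested.

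**Figure D1:**
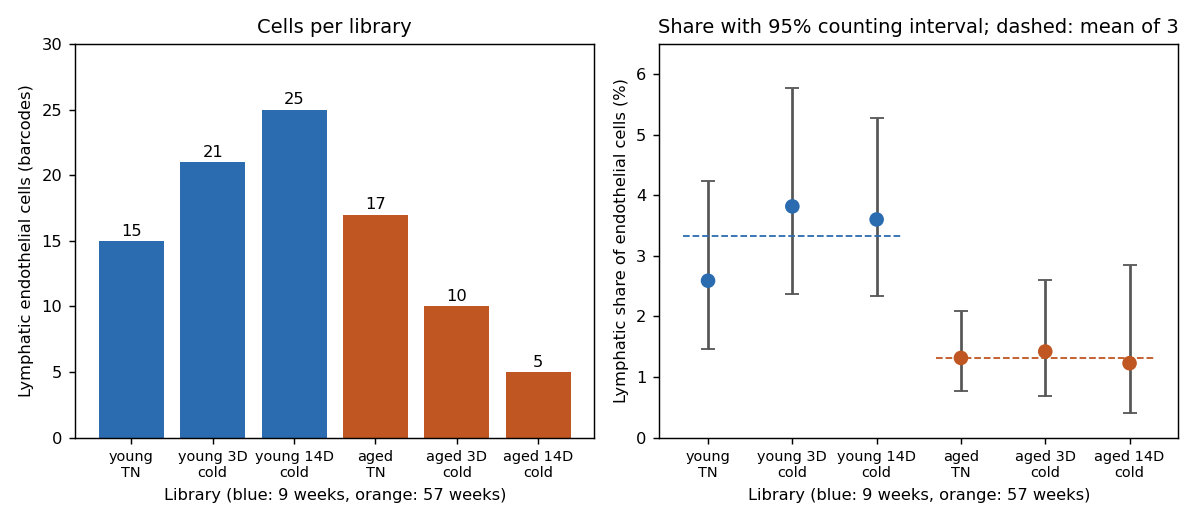
Number of lymphatic endothelial cells in each library (left) and their share of all endothelial cells in % (right), with bars on the points for the 95% exact interval and a dashed line for the mean of the 3 libraries of an age. The 3 young shares lie between 2.59% and 3.82%, above the aged ones at 1.23% to 1.42%.

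The cells were not alike. Marco, which encodes a class A scavenger receptor of sinus lymphatics and macrophages (GRCm38 chromosome 1, 120474538 to 120505024, minus strand), was found in 40 of 93 cells (43.0%), against 0.242% of blood endothelial cells. Ackr4, which encodes an atypical receptor that takes up CCL19 and CCL21 and marks the ceiling of the subcapsular sinus (chromosome 9, 104084157 to 104126933, minus strand), was found in 10. Madcam1, which encodes an addressin also made by sinus floor lymphatics, was found in 20, and Ccl21a (chromosome 4, 42772860 to 42773993, minus strand) in 5. Marco and Ccl21a were never detected in the same cell, nor were Ackr4 and Madcam1. To describe this spread, each cell was placed by the first of Ccl21a, Marco, Ackr4 and Madcam1 it contained, an order chosen after the values were seen, so the groups are given with no test. They held 5, 40, 9, 17 and, with none of the 4 genes, 22 cells.

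The 40 Marco+ cells were the largest of these groups. All 40 had Pecam1 or Cdh5, and Prox1 and Lyve1 stood at 9.86 and 30.4 UMIs per 10,000. Stab2, a scavenger receptor for hyaluronan, was detected in 36 of them (90.0%, and 73.5% of all 49 Stab2+ cells), Mrc1, the mannose receptor, in 33, and Itga2b, which encodes an integrin chain reported in sinus lymphatics, in 38. F8, the gene of coagulation factor VIII, which lymphatic cells are known to make, stood at 16 UMIs per 10,000 in them and at 0 to 5.09 in the other groups. Marco+ cells came from every library, with 6, 11, 10, 7, 3 and 3 cells.

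Madcam1+ cells without Marco showed another set of abundant genes. Glycam1, which encodes a mucin-like ligand of L-selectin, stood at 97.7 UMIs per 10,000 in them against 0.92 in Marco+ cells, and Clu, which encodes clusterin, at 133 against 43.6. The chemokine gene Ccl20 was at 14.3 and Bmp2 at 19.7, against 0 and 4.06 in Marco+ cells, and Cd74, the invariant chain of MHC class II, was at 7.74 against 1.64. Lyve1 was lower in these 17 cells, at 10.3 UMIs per 10,000, and Flt4 stood at 0.66. They numbered 1, 3, 6, 6, 1 and 0.

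Ackr4+ and Ccl21a+ cells were rarer. The 9 Ackr4+ cells had almost no Lyve1 (0.32 UMIs per 10,000) and little Flt4 (0.48), and carried Nts, the neurotensin gene, at 70.4 (308 of 437 UMIs in 1 cell, and none in 3 of the 9), Cd36, a fatty acid translocase gene, at 9.83 and Nfatc1, which encodes a valve-associated factor, at 5.80. Of all 10 cells with Ackr4, 8 had Cd36 and 6 had Nts. The 5 Ccl21a+ cells had Ccl21a at 169 UMIs per 10,000, Mmrn1 at 43.6, Lyve1 at 35.0, and Reln, which encodes the secreted glycoprotein reelin of initial lymphatics, at 15.2. Reln was detected in all 5, and neither Marco, Stab2 nor Mrc1 in any. The 22 cells with none of the 4 genes were shallower (median 4173 UMIs against 7497 in Marco+ cells) and contained Fabp4 at 81.2 UMIs per 10,000.

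**Figure D2:**
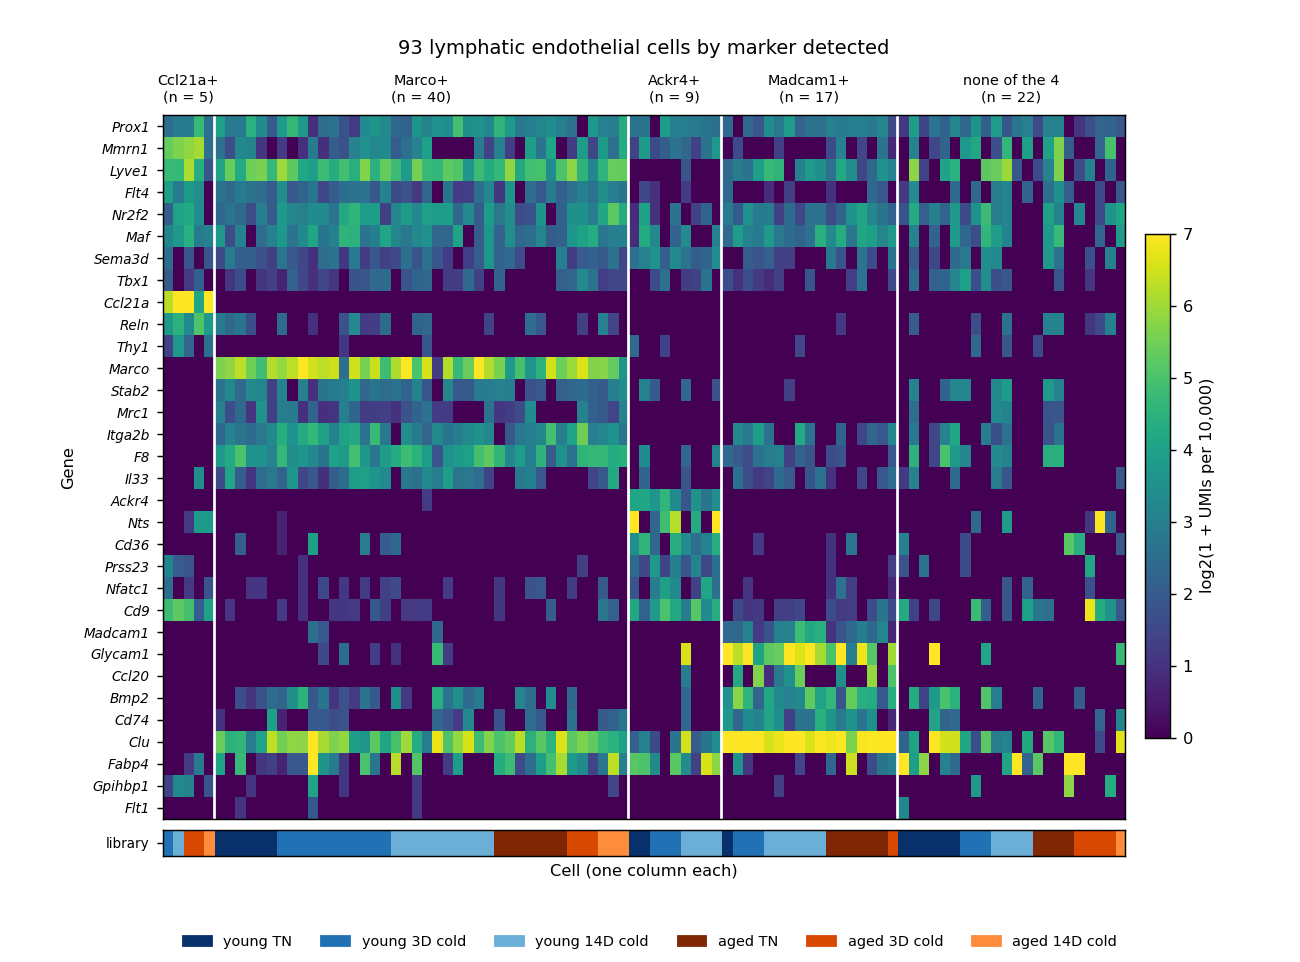
Level of 32 genes (rows) in each of the 93 cells (columns) as log2 of 1 plus UMIs per 10,000, with cells ordered by the first of Ccl21a, Marco, Ackr4 and Madcam1 detected and a colour bar for the library. Stab2, Mrc1 and Itga2b are seen in 36, 33 and 38 of the 40 Marco+ cells, Glycam1 and Ccl20 in 16 and 9 of the 17 Madcam1+ cells, and Nts and Cd36 are seen in most but not all of the 9 Ackr4+ cells.

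Markers of other cells differed in level between lists and libraries. None of 8 lymphocyte and 6 epithelial or mesothelial genes had a UMI. The sort had removed CD45+ cells and the rule those with Ptprc or C1qa. Low lymphocyte and macrophage counts are therefore no independent check of the set. Of 10 macrophage genes, Adgre1, C1qc, F13a1 and Lyz2 were at 0, and the summed level of 3.05, 3.04, 2.24, 2.70, 1.40 and 3.51 UMIs per 10,000 was led by Mrc1 (109 UMIs), and 33 of the 38 cells with Mrc1 also held Marco. Fibroblast genes, all 10 with a UMI and led by Gsn (407 UMIs), summed to 7.81, 8.95, 11.7, 11.6, 14.0 and 24.2 UMIs per 10,000, against 14.4 in blood endothelial cells, and were highest in aged 14D. Mural genes, all 8 with a UMI and led by Rgs5 (140 UMIs), summed to 12.1, 1.15, 5.99, 12.5, 23.1 and 1.95, against 9.96 ± 2.33 (SD, n = 6) in blood endothelial cells, and lay above that mean in 3 libraries. Of these 519 mural UMIs, 392 lay in the 7 cells without Pecam1 and Cdh5. Among these, 4 cells, from young TN, young 14D, aged TN and aged 3D, held 58 to 155 mural UMIs each and at most 2 of Prox1, so their transcripts go against the lymphatic label. In the cells with Pecam1 or Cdh5 the mural genes summed to 1.15 to 5.86 UMIs per 10,000. Adipocyte genes summed to 7.42 in aged TN, where the 32 Car3 and 29 Cfd UMIs lay in 1 cell each, and to at most 0.56 elsewhere. The 10 blood endothelial genes, led by Cldn5, summed to 33.6 to 55.7 UMIs per 10,000, against 124 in blood endothelial cells. In 1 young TN cell with Cdh5 and no Lyve1 they included 43 Aqp1, 7 Flt1 and 15 Vwf UMIs, beside 152 UMIs of Fabp4. The transcripts of that cell also go against the lymphatic label. The part that these markers play in the comparisons below was not tested.

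Set against blood endothelial cells of the same libraries, the 93 cells differed widely in genes that the rule had not used. By edgeR's quasi-likelihood test on UMIs summed per library, with the library as a block, 2879 of 9987 genes differed at an adjusted p under 0.05 (28.8%). Of these 1194 were higher (12% of those tested) and 1685 lower (16.9%) in lymphatic cells, against 1172 higher and 1110 lower by DESeq2. Both sets were chosen by endothelial and lymphatic transcripts, so these values describe what goes with those transcripts. Log2 differences below are lymphatic over blood, followed by their standard error. Over all genes tested the median was -0.16.

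Lymphatic identity genes were higher with few exceptions. Of 16 such genes that the rule had not used, 14 were higher (against 12% of all genes tested), 1 lower and 1 not called. Their median log2 difference was 5.09. Pdpn, which encodes podoplanin, stood at 57.1, 91.7, 105, 56.2, 182 and 117 CPM, against 2.58 ± 1.41 (SD, n = 6) in blood endothelial cells, a log2 difference of 5.01 ± 0.41. The transcription factor gene Maf was at 505, 1003, 704, 911, 953 and 781 against 21.0 ± 9.86, a log2 difference of 4.99 ± 0.21. Neither gene overlapped between the 2 cell sets. Tbx1, a transcription factor gene needed for lymphatic growth, and Reln were near absent from blood endothelial cells, and their log2 differences were 8.29 ± 0.43 and 8.93 ± 0.44. Nr2f2, whose product COUP-TFII partners PROX1, was higher by 2.51. The exception was Sox18, the factor gene that switches on Prox1 in the embryo, which was lower in lymphatic cells (77.8 ± 47.4 against 309 ± 33.4 CPM, log2 difference -2.25 ± 0.25). Nrp2, a VEGF-C co-receptor gene, was not called (0.43, adjusted p = 0.0974).

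Genes of the parts of the lymphatic tree differed unevenly, and are given against the 12% higher and 16.9% lower over all genes tested. Of 7 initial vessel genes, Ccl21a, Nts, Reln, Ackr2 and Sned1 were higher, and Prss23 and Piezo2 were not called. Of 10 collecting vessel and valve genes, Cldn11, Itga9, Foxc2 and Nfatc1 were higher, while Klf2, Klf4 and Gja4 were lower. Cldn11, which encodes a claudin, stood at 85.7, 178, 118, 259, 84.1 and 195 CPM against 0.31 ± 0.494, whereas Foxc2, the valve factor gene, reached only 14.5 ± 20.4 and was at 0 in 3 libraries. Of 13 lymph node sinus genes 9 were higher and Itih5 lower, and Ptx3, Kcnj8 and Cd274 were not called, with a median log2 difference of 6.37. Marco stood at 2685, 4433, 3252, 1315, 1961 and 2499 CPM against 0.803 ± 1.14, and Stab2 at 428, 378, 316, 247, 112 and 429 against 0.121 ± 0.187. Both were high in every library, and blood endothelial cells held 13 and 2 UMIs of them in all. Summed over the 13 sinus genes, lymphatic cells carried 46.3, 78.0, 57.2, 37.4, 43.7 and 40.2 UMIs per 10,000 against 2.18 in blood endothelial cells.

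The largest differences that held in all 6 libraries were mostly on-off. Among the 10 genes named for the rises was Samsn1, which encodes a signalling adaptor. It stood at 190, 258, 329, 427, 112 and 195 CPM and at 0 in blood endothelial cells, at least 1528-fold higher against a floor of 3 counts over the group. Creg2 was at least 1188-fold and Pcdh15, a protocadherin gene, at least 295-fold higher by the same floor. Sema3a and Sema3d encode secreted semaphorins, the former a guidance cue for valves and nerves. Sema3a had 3 UMIs in blood endothelial cells and a pooled ratio of 1510 (counting interval 508 to 7397). Sema3d stood at 295, 384, 309, 315, 266 and 273 CPM against 0.289 ± 0.375, with no overlap. Slc38a4, an amino acid transporter gene, Flrt3, an adhesion gene, Marco, Stab2 and Glycam1 completed the 10, though Glycam1 came from 26 cells.

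Among the falls, Sox17, an arterial factor gene (chromosome 1, 4490931 to 4497354, minus strand), was at 0 in all 6 lymphatic sums against 418 ± 50.8 CPM in blood endothelial cells, at least 85.9-fold lower. Sema3g was at least 23.1-fold, Kcna5, a potassium channel gene, at least 16.5-fold and Esm1, which encodes an endothelial proteoglycan, at least 14.9-fold lower. Cldn15, Ccdc85a, Fam167b, Col8a1, Lnx1 and the gene listed as St6galnac2 completed the 10.

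**Figure D3:**
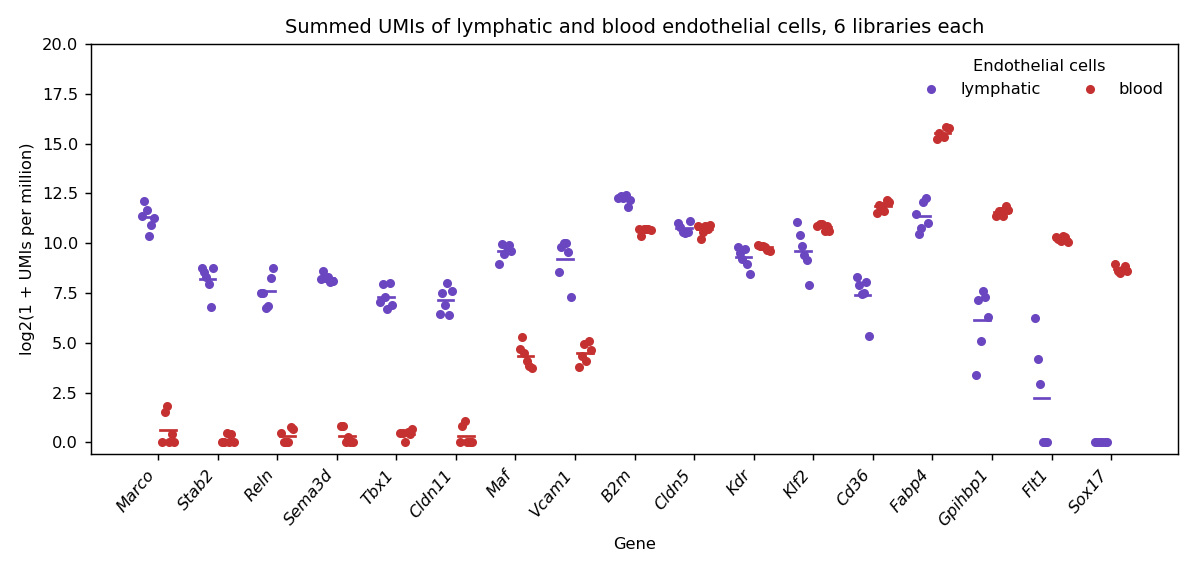
Level of 17 genes in the 6 lymphatic and 6 blood endothelial sums, as log2 of 1 plus CPM, with each point a library and each bar the mean of 6. Maf, Sema3d and Marco lie wholly above, and Fabp4 and Sox17 wholly below, their blood endothelial values.

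Of 11 VEGF and Tie pathway genes tested, 6 were lower, against 16.9% of all genes tested. Only Angpt1, an angiopoietin gene, was higher (2.29 ± 0.57), against 12% of all genes tested. Vegfd, Nrp2, Angpt2 and Ephb4 were not called. Nrp1, a VEGF-A co-receptor gene, was at 28.6, 17.2, 0, 11.2, 0 and 0 CPM against 866 ± 88.3, a log2 difference of -6.51 ± 0.33. Vegfc itself was lower by 5.04 on the log2 scale, and Kdr, which encodes VEGFR-2, was at 656 ± 211 against 884 ± 68.3 (-0.72 ± 0.18). Flt1, which encodes VEGFR-1 and belongs to the blood endothelial list, differed by -6.22. The difference of Kdr was the smallest of these 4 genes.

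Of 17 leukocyte traffic genes, 9 were higher (against 12% of all genes tested) and 2 lower (against 16.9%). Vcam1, which encodes an adhesion molecule, stood at 371, 883, 1014, 1034, 757 and 156 CPM against 22.6 ± 7.92 (log2 difference 4.73 ± 0.22). Csf1, the macrophage colony-stimulating factor gene, was at 524, 378, 408, 517, 294 and 625 against 24.6 ± 3.8 (3.90 ± 0.21). For both genes every lymphatic value exceeded every blood endothelial one. Il7, a lymphocyte survival factor gene, was at 36.7 ± 26.3 against 0.989 ± 0.846. In the other direction, the chemokine gene Cxcl12 was at 30.0 ± 35.3 against 2079 ± 200, a log2 difference of -6.48 ± 0.27. S1pr1, the sphingosine-1-phosphate receptor gene, was not called (-0.44, adjusted p = 0.0688).

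Several antigen presentation genes were higher. Of 11 MHC class I genes, 4 were higher in lymphatic cells (Nlrc5, B2m, H2-K1 and Tap1), against 12% of all genes tested. The other class I genes were not called, and the median log2 difference of the list was 0.38. Of the 3 class II genes tested, 2 were higher (Cd74 and H2-Ab1). No gene of these lists was lower, against 16.9% of all genes tested. B2m, the class I light chain gene, was at 4951, 5350, 4865, 5475, 3587 and 4685 CPM against 1606 ± 147, with no overlap. Cd74 was at 280 ± 125 against 7.38 ± 8.24 and was found in 40 of the 93 cells. Of 14 interferon-stimulated genes tested, 5 were lower (Rsad2, Ifit3, Ifit2, Ifi35 and Irf1), against 16.9% of all genes tested. Zbp1 was higher, against 12% of all genes tested, and the rest were not called. The median log2 difference of the list was -0.37, against -0.16 over all genes tested.

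Most genes of the lipid list were lower in lymphatic cells. Of 18 genes of fatty acid and lipoprotein handling, 14 were lower (against 16.9% of all genes tested) and 2 higher (against 12%). Their median log2 difference was -2.56. Fabp4 stood at 2799, 1428, 1751, 4362, 5002 and 2069 CPM against 47368 ± 8133 (-4.45 ± 0.17), and 53.8% of its lymphatic UMIs lay in 4 cells. Gpihbp1, which encodes the anchor of lipoprotein lipase on capillaries, was at 102 ± 72.5 against 3087 ± 402 (-5.28 ± 0.23), and Cd36 at 201 ± 95.7 against 3746 ± 637 (-4.37 ± 0.20). Fabp4 was at 27.1 and Cd36 at 9.83 UMIs per 10,000 in the Ackr4+ cells. Among the genes that were higher was Abca1, which encodes a cholesterol exporter, at 456 ± 128 against 70.9 ± 11.9.

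Junction, matrix and signalling genes are given against the 12% higher and 16.9% lower over all genes tested. Of 12 junction and flow-sensing genes, Celsr1, a planar polarity gene of valves, was higher by 6.78 and Gja5, Esam, Fat4 and Gja4 were lower, while Cldn5, the main endothelial claudin gene, was not called (-0.24, adjusted p = 0.301). Of 16 matrix genes, Timp2, which encodes a metalloproteinase inhibitor, was higher (3.22 ± 0.19), and 6 basement membrane and matrix genes were lower, with Sparc at -2.44 ± 0.18. Calcrl, the receptor gene for adrenomedullin, was higher at 220 ± 55.8 against 78.8 ± 10.7 CPM. The ligand gene Adm (-2.01 ± 0.38) and Ramp2, whose product makes CALCRL an adrenomedullin receptor (-0.75), were lower. The adrenergic receptor gene Adra1b was higher by 4.29. Of 12 immediate early and dissociation genes 9 were lower, Hspa1b was higher, and no cell cycle gene of 4 tested was called.

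**Figure D4:**
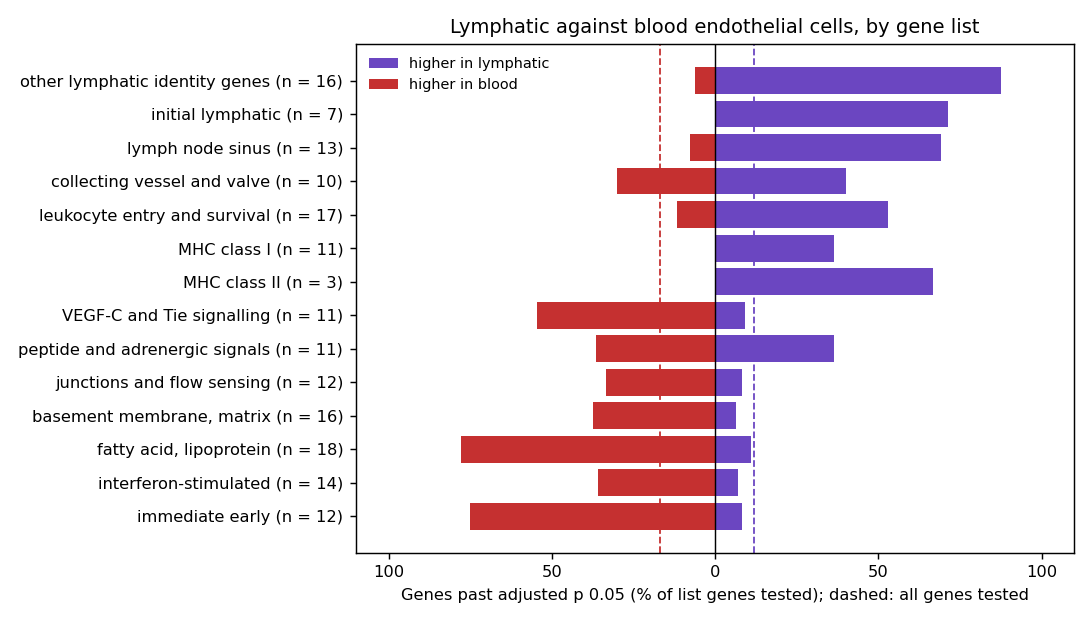
Share of the tested genes of each list, in %, that were higher or lower in lymphatic than in blood endothelial cells at an adjusted p under 0.05, with dashed lines for all 9987 genes tested (12% higher, 16.9% lower). The identity, initial vessel and node sinus lists lie far above the upper line, and the lipid list far beyond the lower one.

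The study asked how age changes the stromal cells of fat. In lymphatic cells, with temperature as a term and 2 residual degrees of freedom, 1 of 2119 genes changed with age (0.0472%), and 101 had an unadjusted p under 0.05. The gene was Ccl21a, at 0, 275, 606, 0, 2270 and 4256 CPM, with a log2 difference of 2.89 ± 0.29 and an adjusted p of 0.00422 by edgeR. All 411 UMIs came from 5 cells, with 48, 92, 162 and 109 UMIs in the 4 libraries that had any, and both TN libraries were at 0. The call was lost without young 3D (adjusted p = 0.0984) or young 14D (0.435) and without the temperature term (0.898), with a stricter limit on Dcn (0.850) and without cells that held Marco, Madcam1 or Ackr4 (0.998). In 16 settings the log2 difference of Ccl21a with age ranged from 1.12 to 5.09. Leaving out aged TN, aged 3D or aged 14D gave 16, 25 and 26 called genes for age instead of 1. Reads of Ccl21a can be shared with near-identical gene copies, so the gene itself is uncertain.

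Other genes differed in level without passing the test. Klf2 encodes a flow-responsive transcription factor (chromosome 8, 72319033 to 72321656). It stood at 2142, 1359 and 922 CPM in the young and 686, 560 and 234 in the aged libraries, a log2 difference of -1.58 ± 0.25 (edgeR adjusted p = 0.0557). The ages did not overlap, and within each age the order was TN, 3D, 14D. Cxcl10, an interferon-induced chemokine gene, was at 705, 143 and 1297 against 214, 28.0 and 273 (-2.02 ± 0.34, adjusted p = 0.0557), lower in the aged library at each temperature although the ages overlapped. The largest uncalled falls by the naming rule were Ackr4, Gdf10, Rgs2, Cxcl10 and Gstt1.

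Ackr4 was at 267, 178 and 112 CPM in young and at 0 in all 3 aged libraries, so the level was at least 10.9-fold higher in young mice against a floor of 3 counts over the group (adjusted p = 0.0557). It was detected in 0.048% of blood endothelial cells, in 10 of 61 young lymphatic cells (16.4%, 95% exact interval 8.15 to 28.1) and in 0 of 32 aged cells (upper limit 10.9%). These limits concern cells with a UMI of the gene and cover counting error only. With every cell thinned to 2000 UMIs, 7 of 60 young cells (11.7%) still had it. Gdf10, which encodes a BMP family ligand, was at 381, 138 and 92.2 against 22.5, 0 and 39.0 (adjusted p = 0.105), the aged values resting on 3 UMIs. Rgs2, a regulator of G protein signalling, was at 638, 195 and 375 against 146, 28.0 and 0 (adjusted p = 0.104). For Ackr4, Gdf10 and Rgs2 every young value exceeded every aged one.

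The largest uncalled rises were Aph1b, Ly6a, Meg3, Fgl2 and Clic5, with log2 differences of 1.99 to 2.83. Ly6a, which encodes Sca-1, stood at 28.6, 17.2 and 32.9 CPM in young and 180, 112 and 312 in aged libraries, a log2 difference of 2.82 ± 0.56 (adjusted p = 0.115) from 3 to 16 UMIs per library. The cyclin kinase inhibitor gene Cdkn1a, named after its values were seen, was at 324, 333 and 421 against 753, 701 and 1328 (1.30 ± 0.27, adjusted p = 0.142). Neither gene overlapped between ages. Ly6a is abundant in fibroblasts and blood endothelial cells, whose summed markers differ between these libraries as given above, and the part of their RNA in the Ly6a values was not tested. Marco lay the other way, at 2685, 4433 and 3252 against 1315, 1961 and 2499 (-0.88 ± 0.19, adjusted p = 0.168). The share of cells with it was 44.3% in young and 40.6% in aged mice.

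Among the lists, only those that contain Ccl21a had a called gene for age. None of 8 sinus, 7 collecting vessel, 7 lipid, 9 matrix, 10 MHC class I or 12 immediate early genes was called, against 0.0472% of all genes tested. With so few calls over all genes, the lack of calls says nothing particular about these lists. A list of 7 genes that the study linked to age in fibroblasts of these same libraries was carried along, which makes it no independent test. Only Cd9, Meg3 and Postn could be tested for age, and none was called. Meg3, a non-coding RNA gene, was at 19.0, 22.9 and 19.8 against 247, 140 and 39.0 CPM, and 22 of the aged TN UMIs lay in 3 cells. Cd9, a tetraspanin gene, was at 381, 487 and 415 against 157, 1919 and 508, and Postn, the periostin gene, at 695, 298 and 467 against 675, 406 and 273. Of the 164 aged Cd9 UMIs, 98 lay in 1 cell of the aged 3D library. Pltp, Gpnmb, Itm2a and Gpc3 had values of 0 in at least 2 libraries each.

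For cold exposure, the other factor of the design, the main edgeR fit also called only Ccl21a, from the UMIs of 5 cells. It was the 1 gene of 2119 called over the 3 temperatures (0.0472%, adjusted p = 0.000174) and for cold over TN (0.0472%, adjusted p = 6.03e-05), and 88 and 90 genes reached an unadjusted p below 0.05. Pooled over cells it was at least 62.8-fold higher in cold than at TN against a floor of 3 counts over the group. A UMI of the gene was found in 5 of 61 cold cells (8.20%, 95% exact interval 2.72 to 18.1) and in 0 of 32 TN cells (upper limit 10.9%). These intervals overlap, cover counting error only and are no test between conditions. The call on summed UMIs rests on 5 cells, so no effect of cold is read from it. In blood endothelial cells 3 Ccl21a UMIs were found in all. The call was lost without the age term (adjusted p = 0.635 over the 3 temperatures and 0.407 for cold over TN), with a stricter limit on Dcn, and without cells that held Marco, Madcam1 or Ackr4 (0.125 and 0.0524). In 16 settings the fitted log2 difference stayed at 7.96 to 10.8 for 3D over TN and at 8.46 to 11.25 for cold over TN. With both TN libraries at 0, these are not exact folds. Over the 3 temperatures, 3 genes were called without young 3D, and 16, 27 and 34 without aged TN, aged 3D and aged 14D, and for cold over TN the last 3 gave 13, 25 and 16.

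All 12 immediate early and dissociation genes had a negative difference between cold and TN, and none was called, against 0.0472% of all genes tested. Their median log2 difference was -0.66, against -0.03 over all genes tested. The 5 mural genes tested were also all negative, with a median of -0.71, and none was called. Jun was at 3132, 1663, 2330, 2451, 1793 and 1132 CPM and Zfp36 at 2599, 1107, 1508, 1889, 771 and 664. In both genes each TN library was above the cold libraries of its own age. Adamts1, which encodes a matrix protease, had 1266 and 2721 at TN and 619 to 781 in cold (-1.43 ± 0.27, adjusted p = 0.156). Initial vessel genes other than Ccl21a did not pass the test. Nts was at 2932, 373, 474, 0, 1121 and 195 CPM, and all 308 UMIs of the young TN library lay in 1 cell. Pdpn and Reln were not called either, with log2 differences for cold of 1.06 and 0.46.

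The age differences of lymphatic and blood endothelial cells were compared within libraries. Blood endothelial cells had 56 of 10736 genes that changed with age (0.522%). The difference between the 2 age effects passed the test in 26 of 9987 genes (0.26%), 14 with a higher and 12 with a lower effect in lymphatic cells by edgeR, against 21 and 9 with another scaling, and 587 genes reached an unadjusted p below 0.05. DESeq2 called 0, with 238 below an unadjusted 0.05, and edgeR called 14 without young TN and 16 without young 3D. The genes named by the rule with a lower age effect in lymphatic cells were Gdf10, Rgs2, Gstt1, Cxcl10, Csf2rb2, Irf8, Klf2, Klf4 and Fth1, and those with a higher one were Meg3, Ly6a, Slco2a1, Fgl2 and Id3.

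Klf2 and Klf4, a pair of flow-responsive factor genes, were the only called members of the 10 collecting vessel genes tested, against 0.26% of all genes tested. Klf2 was at 1864, 2026, 1981, 1588, 1856 and 1586 CPM in blood endothelial cells, with an age effect of -0.18 there, and the difference between the 2 effects was -1.42 ± 0.30 (adjusted p = 0.00288). Klf4 was at 2018, 1468 and 1297 in young against 731, 715 and 1054 in aged lymphatic cells, with a difference of -1.32 ± 0.29 (adjusted p = 0.00581). Both were lower in each aged lymphatic sum than in each young one, whereas their blood endothelial values stayed between 1282 and 2026. Their level also varied with the cell group, at 23.4 (Klf2) and 20.6 (Klf4) UMIs per 10,000 in the 9 Ackr4+ cells, all young. In the 17 Madcam1+ cells they stood at 3.79 and 4.2, and in the 5 Ccl21a+ cells, 3 of them aged, at 13.99 and 23.04. The young TN cell with 152 Fabp4 UMIs described above held the most UMIs of both genes, 40 and 64. All 12 immediate early and dissociation genes also had a negative difference between the 2 age effects, though none was called. Their median log2 difference was -0.59, against -0.14 over all genes tested. In 16 other settings, Marco+ cells alone among them, the difference stayed at -1.85 to -1.12 for Klf2 and at -1.495 to -0.967 for Klf4. Each gene was called in 9 of the 16. The parts of dissociation, of the mix of cell groups and of that young TN cell in the Klf2 and Klf4 values were not tested on their own.

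The age effects of Irf8, Csf2rb2, Cxcl10 and Fth1 also differed. Irf8, an interferon-regulated factor gene, was at 248, 270 and 434 in young and 247, 182 and 195 in aged lymphatic cells, while in blood endothelial cells it rose with age by 1.07 on the log2 scale (adjusted p = 0.0187). The difference was -1.72 ± 0.42 (adjusted p = 0.0224). Csf2rb2, a cytokine receptor chain gene, was at 352, 419 and 329 against 214, 168 and 156, with a difference of -1.77 ± 0.42 (adjusted p = 0.0143). For Cxcl10 the difference was -2.48 (adjusted p = 2.12e-05). Fth1, the ferritin heavy chain gene, was at 13738, 14479 and 13272 against 10096, 8588 and 10503, the most abundant gene of this group and without overlap between ages.

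Of the named genes with a higher age effect in lymphatic cells, Ly6a kept its call in the most settings (14 of 16). It stood at 1600 to 2100 CPM in all blood endothelial sums, and its difference was 2.73 ± 0.49 (adjusted p = 5.19e-05). Slco2a1, which encodes a prostaglandin transporter, was at 238, 40.1 and 39.5 against 315, 154 and 312, and in blood endothelial cells it fell by 0.86 with age (adjusted p = 0.0201). Fgl2, which encodes a fibrinogen-like protein, was at 95.2, 281 and 105 against 112, 841 and 1445, with 33 of the 37 UMIs of aged 14D in 1 cell. Id3, an inhibitor of helix-loop-helix factors, was at 95.2, 63.1 and 138 against 214, 252 and 703. Genes called outside the rule included Car3, Cfd and Rgs5, the markers of adipocytes and mural cells described above.

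**Figure D5:**
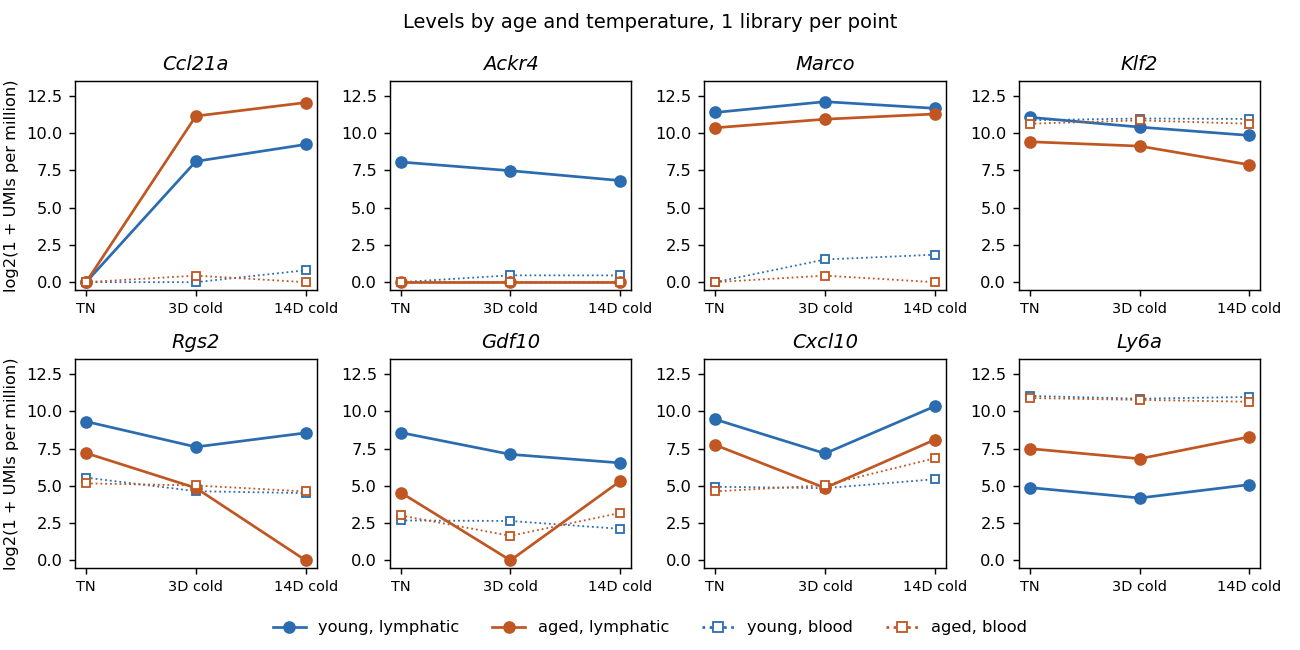
CPM of 8 genes at TN, 3D and 14D, for young and aged mice, in lymphatic (solid) and blood endothelial cells (dotted), with each point a single library and lines only to guide the eye. Klf2 in lymphatic cells lies at 234 to 686 in aged and 922 to 2142 in young mice, Ackr4 is at 0 in the aged libraries, and Ly6a is low in all lymphatic sums but higher in the aged ones.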

How the data were processed

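The authors prepared 10x Chromium 3′ v3.1 libraries and deposited Cell Ranger gene by barcode matrices of raw UMI counts. Their processing notes name mm10, R 4.1.1 and Seurat. Counts were used as deposited (52068837 to 88508349 per library) and no column was left unmapped. UMIs of the selected cells were summed per library and tested with edgeR 4.0.16 (quasi-likelihood F test, TMM factors, filterByExpr, Benjamini-Hochberg, threshold 0.05) in R 4.3.3, with DESeq2 1.42.0 as an alternative. Cells were not treated as replicates. Terms were age and temperature, or cell set and library as a block, with the product of cell set and age for the difference between age effects. Shares were compared by exact permutation with scipy 1.17.1. Other settings were RLE factors, no count filter, cells thinned to 2000 UMIs, and at least 3 marker genes detected per cell. Further ones were at least 2000 UMIs per cell, a Dcn limit of 5, doublets left out, no Marco, Madcam1 or Ackr4, and each library left out. Restricting the cells to those with Pecam1 or Cdh5, or with Marco, was chosen after seeing the data, as were the shares with a stricter Dcn limit or without sinus markers.

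The cells, lists and comparisons were chosen with earlier results of these data known. Genes were named as the 10 largest called changes in each direction with a mean of at least 20 CPM and the same sign in every temperature, age or library compared, or as the 5 largest uncalled ones where none passed, together with a fixed set (the gate markers, Pdpn, Ccl21a, Reln, Nts, Marco, Ackr4, Cldn11, Cd9, Pltp, Gpnmb, Meg3, Itm2a, Gpc3 and Postn). Ccl21a, called for age, did not meet the sign condition because both TN values were 0. Genes used by the gates entered no test. In simulated counts for the age comparison (2119 genes) 74% of 4-fold and 87% of 8-fold changes were recovered, and for the difference between age effects (9987 genes) 17% and 50%. These simulations gave every gene the same dispersion and held no single cells. They cannot say how many changes would be recovered for genes carried by few cells. Genome positions are those of GRCm38.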

Additional observations from a re-analysis of the deposited data

Results flagged for a closer look

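Genes are given here because their age effect differed between lymphatic and blood endothelial cells by a test of the difference itself (edgeR, adjusted p under 0.05). The values are log2 age effects in lymphatic minus blood endothelial cells. They were 3.281 for Meg3, 2.731 for Ly6a, 2.153 for Slco2a1, 2.0 for Fgl2 and 1.65 for Id3. On the negative side they were -3.889 for Gdf10, -2.595 for Rgs2, -2.532 for Gstt1, -2.481 for Cxcl10, -1.775 for Csf2rb2, -1.717 for Irf8, -1.424 for Klf2, -1.321 for Klf4 and -0.9131 for Fth1. Of 16 other settings, Ly6a was called with the same sign in 14, Rgs2 in 13, Cxcl10 in 12, Slco2a1 in 10 and Klf2 in 9. The other 9 genes were called in 6 to 9 of the 16, and DESeq2 called none of the 14.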

How the results depend on the processing

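All replicate numbers are 1 and number no pairs, so samples were not paired by number. For gene levels the age comparison was matched by temperature as a term, and lymphatic with blood endothelial cells by library. The shares were compared by an unmatched permutation test only. At each temperature the aged library had the lower lymphatic share of endothelial cells. The lymphatic share of endothelial cells was lower in aged mice by -1.17 to -2.39 percentage points in the planned settings. In settings chosen after seeing the data it was -2.73 with a stricter Dcn limit, -1.93 in Pecam1+ or Cdh5+ cells, -0.948 in Marco+ cells and -0.293 without sinus markers, where the ages overlapped. The share of all barcodes differed by -0.0107 (without sinus markers) to -0.124.

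Counts of genes called moved by more than 1.5 times as follows. For age (main count 1) there were 26 without a filter on low counts, 10 with 3 marker genes, 5 with thinned cells and 3 with Pecam1+ or Cdh5+ cells. There were 0 without the temperature term, with a stricter Dcn limit, without Marco, Madcam1 or Ackr4, and in Marco+ cells, and 0 to 26 with 1 library left out. For temperature (main count 1) DESeq2 called 2, no filter 28, 3 marker genes 9, thinned cells 7, Pecam1+ or Cdh5+ cells 3, and the fits without the age term, with a stricter Dcn limit or without sinus markers 0, with 1 to 34 on leaving out a library. For cold over TN (main count 1) no filter gave 17, 3 marker genes 7, thinned cells 6 and Pecam1+ or Cdh5+ cells 2. There were 0 without the age term, with a stricter Dcn limit, without sinus markers and in Marco+ cells, and 1 to 25 with a library left out.

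Between lymphatic and blood endothelial cells (main count 2879), thinned cells gave 1854 and cells without sinus markers 1269, with 2227 to 2726 on leaving out a library. For the difference between age effects (main count 26) the counts were 0 with DESeq2, which moved the median of all genes by 0.12, 3 with thinned cells, 16 with 3 marker genes, 2 without sinus markers, 7 in Marco+ cells and 14 to 33 with a library left out. The effect of Id3 reversed in Marco+ cells, to -0.78. The cause of these moves was not tested.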
